A study of Drosophila melanogaster with 185 samples.

Results

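The cytosolic ribosomal protein genes of Drosophila melanogaster were taken as every gene in the deposited counts whose symbol starts with RpL or RpS. The rule found 92 of 15682 genes, 54 named for the large and 38 for the small ribosomal subunit. It does not take the 72 mitochondrial ribosomal protein genes, whose symbols start with mRpL or mRpS. It also leaves out ribosomal proteins under other symbols, such as sta and Rack1, which are described separately.

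RNA was measured in 72 libraries of neurons, 27 of whole flies and 2 of brains to ask how mushroom body neurons differ by class and after aversive olfactory training. Flies carried a GAL4 driver with a UAS-eGFP reporter in the w1118 background, and labelled neurons were drawn into a patch pipette from living animals. Flies were matched for age and parents, and their age is not given in the sources used here. Trained flies received 8 spaced blocks in which an odor (3-Octanol or 4-Methylcyclohexanol) was paired with shock, and control flies received the shock first and the odor after it. Kenyon cells, the intrinsic neurons of the mushroom body, were of the gamma class (NP1131-GAL4; 6 control and 6 trained libraries) and the alpha/beta class (c739-GAL4; 6 and 6), with over 100 cells pooled in each library. V2 neurons (R71D08-GAL4; 5 and 5) were pooled as 12 cells. The remaining classes had 4 cells per library: V3 (CG0239-GAL4; 5 and 5), DAL (G0431-GAL4; 5 and 5), 3-86-GAL4 (6 and 4) and R27G01-GAL4 (4 and 4). The whole flies labelled G386-GAL4 were taken as the driver line of the 3-86 neurons, whose library titles also start with G386. A class is defined by its driver and its position, and a driver line may label other cells too. Whole flies of the 7 driver lines carried the same driver and reporter (24 libraries), and a further 3 whole-fly libraries and both brain libraries came from UAS-GFP flies. No training is recorded for whole-fly or brain libraries, whereas control neurons came from flies given shock and odor. In comparisons of neurons with whole flies or brains, the parts of tissue and of this protocol cannot be told apart. Cell number and class go together in this design, so their parts in a difference between classes with different cell numbers cannot be told apart. Titles of neuron libraries end in codes whose meaning is not given in the sources used here. No 3-86 or R27G01 library shares a code with a DAL, V3, V2 or Kenyon cell library. In comparisons across that divide, code and class cannot be told apart.

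Ribosomal proteins surround the ribosomal RNA of the small subunit, which decodes the message, and of the large subunit, which joins amino acids and holds the exit tunnel and the P stalk that recruits elongation factors. Their genes are among the most abundantly transcribed in growing and secretory cells, and their short messages are made in step with one another. In the fly several of them have a second copy, some of which are used mainly in the germ line.

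Counted reads ran from 1.69 to 22.9 M in neuron libraries, from 0.932 to 16.2 M in whole flies, and were 1.33 and 2.27 M in the brains (M, 1e6 reads). The neuronal genes elav and n-syb were detected in every neuron library. The sum of 8 pan-neuronal markers was 11400 to 18800 counts per 1e6 counted reads (CPM) in Kenyon cells, 10400 to 14200 in V2, 2010 to 15200 in the 4-cell classes and 114 to 596 in whole flies. The sum of 8 fat body and yolk markers (Yp1, Yp2, Yp3, Lsp2 and others) was 11.3 to 17700 CPM in Kenyon cells, 637 to 17600 in V2, 1100 to 131000 in the 4-cell classes, 6050 to 84500 in whole flies and 486 to 508 in the brains. Other markers were present too: in the 4-cell classes the photoreceptor sum was 266 to 54700 CPM, the hemocyte sum 55.7 to 6600, the glial sum 91.3 to 2040, the muscle sum 10.8 to 5960 and the germline sum 0 to 81.9. Among defining markers there, Yp1, the photoreceptor gene ninaE and the hemocyte gene Hml were above 0 in all 38 libraries, the glial gene repo was at 0 in 18 and the germline gene vas in 31. A pair of 3-86 libraries (trained 2 and control 3) each joined 2 runs with unlike counts: their chi-square divided by its degrees of freedom was 317 and 229.5, where the runs of other libraries gave 0.976 to 1.044, so each sum joins unlike runs under its label; alpha/beta control 6 had 35.3.

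Most members were abundant in neurons. Over the mean of the 14 neuron groups, 80 were at 100 CPM or more, 3 (RpL7-like, RpLP0-like and RpS15Ab) lay between 10 and 100 CPM, and 9 were below 10 CPM. Per kilobase of coding length, the highest levels in neurons were those of RpL41, a basic peptide and the smallest ribosomal protein, at 21330 CPM per kb and of RpL39, a short protein of the exit tunnel wall, at 12340. RpS29, RpS25 and RpL38 followed at 6598, 5646 and 5348 CPM per kb. RpL15 had 0 counts in every library, against 776.7 M counted reads in all, where 3 counts would be 0.0039 CPM. It encodes a core protein of the large subunit and was at 0 in whole flies too, so no expression is read from this value. RpL10Aa, RpL22-like, RpS28a and RpS19b made up the remainder of the 5 lowest, with RpS19b also at 0 in every neuron library.

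Among control neurons, the summed share of the 92 genes among counted reads was lowest in Kenyon cells and V2 and had its highest mean in R27G01. In control gamma libraries it was 1.52% at the lowest, 2.36% at the median and 2.80% at the highest, and in control alpha/beta libraries 2.14%, 2.93% and 3.30%. The 5 control V2 libraries had 3.38%, 2.59%, 2.82%, 3.05% and 3.12%. These 3 classes lay close together, and their libraries overlapped. The 5 control V3 libraries had 6.28%, 3.06%, 3.83%, 10.05% and 5.86%, and the 5 of DAL had 10.1%, 13.04%, 9.61%, 9.75% and 4.88%. Control 3-86 libraries had 5.98% at the lowest, 9.03% at the median and 20.9% at the highest. The 4 control R27G01 libraries had 14.3%, 15.7%, 10.8% and 7.54%. As means with SD the order was gamma 2.28% ± 0.50 (n = 6), alpha/beta 2.83% ± 0.48 (n = 6), V2 2.99% ± 0.30 (n = 5), V3 5.82% ± 2.72 (n = 5), DAL 9.48% ± 2.93 (n = 5), 3-86 10.3% ± 5.40 (n = 6) and R27G01 12.1% ± 3.65 (n = 4). Each class overlapped its neighbours in this order, V3 with V2 through its lowest library alone. Whole flies of the 7 driver lines had 13.4% ± 1.98 (n = 24), and UAS-GFP flies 9.68%, 10.52% and 11.3%. The brains had 1.28% and 0.935%, below every control neuron library. In bulk samples, fewer cells of a type and less RNA per cell cannot be told apart.

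**Figure D1:**
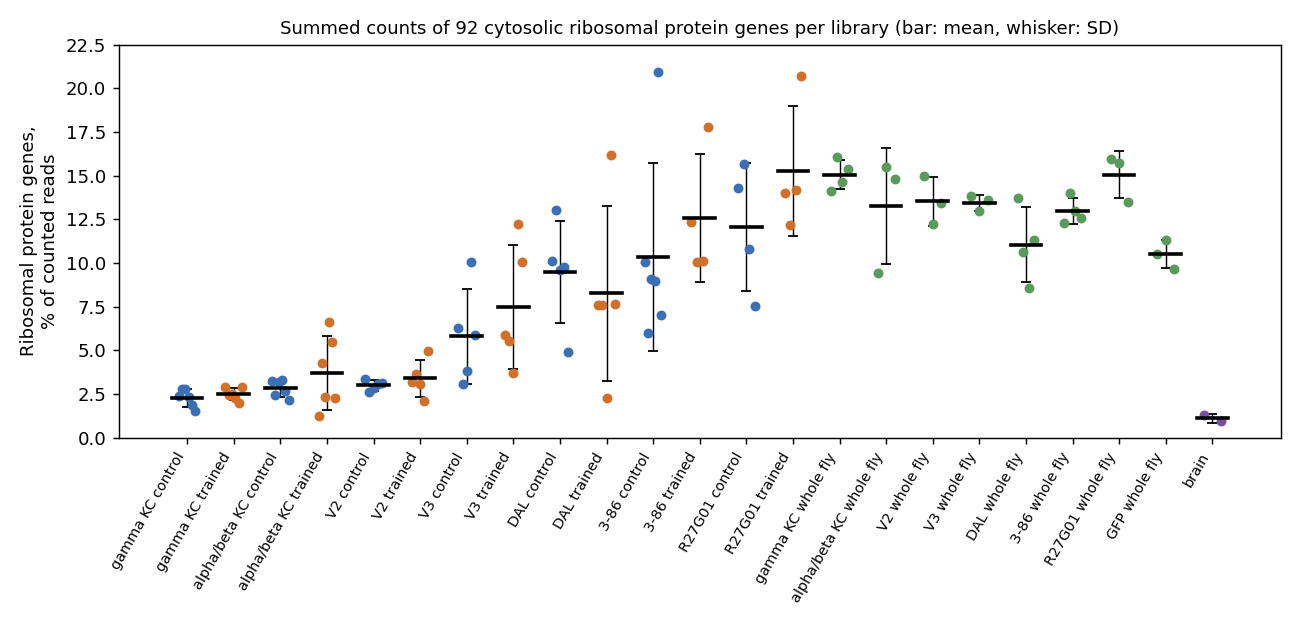
Summed share of the 92 ribosomal protein genes (y axis, % of counted reads) in each library (points), by group on the x axis; blue is control neurons, orange trained neurons, green whole flies and purple brains, with the mean as a bar and the SD as a whisker. Kenyon cell and V2 control libraries sit between 1.52% and 3.38%, while 4-cell control libraries spread from 3.06% to 20.9%.

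The question of class was asked with the 37 control neuron libraries in one edgeR quasi-likelihood fit, with Benjamini-Hochberg adjustment over 9168 genes. Of the 92 members, 85 passed the filter on low counts; the other 7 were RpL10Aa, RpL15, RpL22-like, RpL37b, RpS19b, RpS28-like and RpS28a. Kenyon cells had 81 of the 85 tested members lower and 1 higher than the 4-cell classes at an adjusted p under 0.05, where 16.5% of all genes tested were lower and 19.4% higher. The members' median log2 fold change was -1.86, and that of all genes 0.14. The members not called were RpL7-like (0.28 ± 0.40, SE), RpLP0-like (-1.18 ± 1.09) and RpS5b (-0.40 ± 1.02).

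The largest falls among members at 10 CPM or more were those of RpL30, RpLP1, RpL39, RpL17, RpLP2 and RpL41, all of the large subunit. RpLP1, a stalk protein, was at 176 CPM at the lowest, 289 at the median and 473 at the highest in the 12 control Kenyon libraries, and at 279, 1969 and 5430 CPM in the 20 control 4-cell libraries. The ranges overlapped through V3 control 2 and 3 alone, and the 5 V2 libraries (463.8, 374.6, 386.6, 367.2 and 526.8 CPM) lay near the Kenyon cells. RpLP1 was 2.64 ± 0.27 (SE) lower on the log2 scale in Kenyon cells (log2 fold change -2.64, edgeR adjusted p = 1.13e-10), its partner RpLP2 had -2.46 ± 0.35, and RpLP0, which anchors both to the ribosome, -1.65 ± 0.24, less than the members' median. RpL30 had the largest fall, from 812 ± 495 CPM (SD, n = 20) to 124 ± 36.2 CPM (n = 12), a log2 fold change of -2.70 ± 0.29. RpL39 (-2.49 ± 0.26), RpL17 (-2.48 ± 0.27), which lies at the exit of the tunnel, and RpL41 (-2.35 ± 0.29) came next. RpL3, which reaches toward the peptidyl transferase centre, had -2.10 ± 0.26.

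In the small subunit, RpS6, the substrate of S6 kinase, was at 210 CPM at the lowest, 424 at the median and 672 at the highest in Kenyon control libraries, against 612, 1197 and 2105 CPM in 4-cell control libraries. The 2 ranges met at their edges, and the log2 fold change was -1.62 ± 0.19 (edgeR adjusted p = 4.61e-09). RpS3A was at 652, 970 and 1223 CPM against 885, 3045 and 6556 CPM, with some overlap, with a log2 fold change of -1.60 ± 0.21. RpL32, known as rp49 and often used as a reference transcript in fly quantitative PCR, was at 158, 241 and 385.6 CPM in Kenyon libraries and at 253, 801 and 2125 CPM in 4-cell libraries, with a log2 fold change of -1.78 ± 0.25 (edgeR adjusted p = 1.87e-07). The weakest member called lower was RpL24-like, at -0.80 ± 0.22. The single member called higher was RpS10a, a rare paralog of RpS10b with 104 counts in 8 of the 12 Kenyon libraries (0.696 CPM on average) and 2 counts in 1 of the 20 4-cell libraries.

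V2, with 12 cells per library, was also lower than the 4-cell classes in most members. Here 81 of 85 were lower and 0 higher, against 6.49% lower and 7.19% higher among all genes tested, with a members' median of -1.93. The largest falls among members at 10 CPM or more were those of RpLP2 (-2.56 ± 0.52), RpL30 (-2.56 ± 0.42), RpLP1 (-2.47 ± 0.39), RpS5a (-2.46 ± 0.40), RpL23A (-2.42 ± 0.46), which docks the signal recognition particle at the tunnel exit, and RpS15Ab (-2.42 ± 0.49). Between Kenyon cells and V2, RpS10a was the only member called (edgeR adjusted p = 0.0483), with 0 counts in V2, where 3 counts over the group would be 0.0557 CPM. In that comparison 2.30% of all genes tested were higher and 2.37% lower, 4 members had an unadjusted p under 0.05, and DESeq2 called 0.

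The fat body markers moved with these falls. All 5 fat body markers that passed the filter were lower in Kenyon cells than in the 4-cell classes, as were 6 of 7 hemocyte, 6 of 8 photoreceptor, 4 of 8 muscle and 2 of 7 glial markers. The remaining hemocyte marker was higher, as were 7 of 8 pan-neuronal and 8 of 8 Kenyon cell markers. In 7 of the 8 4-cell groups the library with the largest share of ribosomal protein reads was also the one with the largest fat body sum, and in 1 of the 6 Kenyon and V2 groups. At the low end, the smallest share and the smallest fat body sum fell in the same library in 3 of the 8 4-cell groups. For the Kenyon and V2 groups this held in 2 of 6. With the 4-cell classes held to the 8 control libraries under 16000 CPM of fat body markers, a bound chosen after both quantities were seen, 66 of 87 members tested were lower and 0 higher in Kenyon cells, where 11% of all genes were lower and 10.8% higher, with a members' median of -1.04. In V2, 57 of 87 were lower and 0 higher, against 1.72% and 1.47% of all genes, with a median of -1.14. Under that bound no R27G01 and 1 DAL library remained. RpL41 had -1.32 ± 0.26, RpS3A -0.92 ± 0.18 and RpL32 -0.88 ± 0.21 in Kenyon cells, and RpS10b turned to 0.23 ± 0.36 from -1.59 ± 0.36. The part of RNA from other cells in these differences was not tested.

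**Figure D2:**
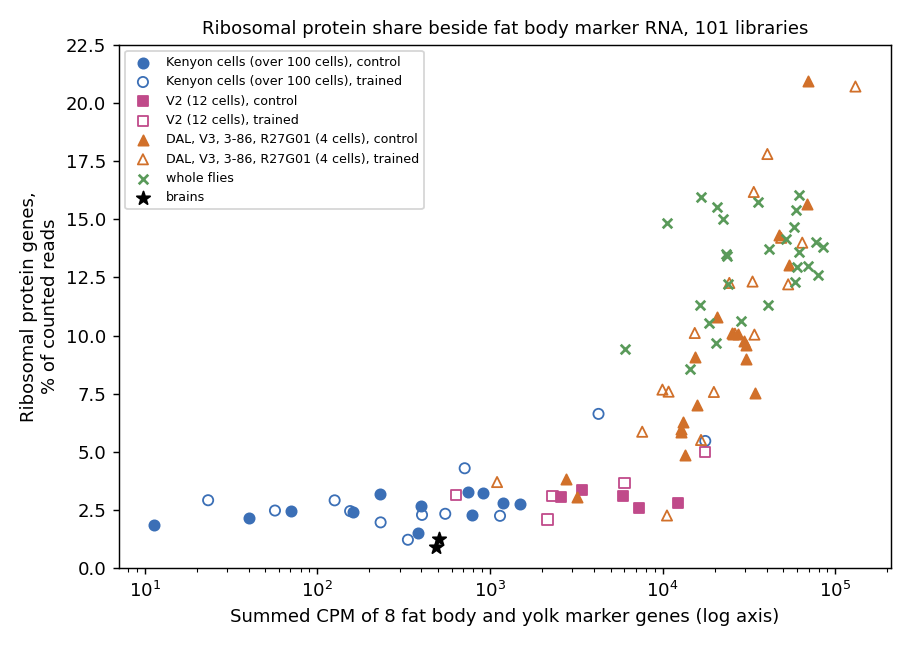
Summed share of the ribosomal protein genes (y axis, % of counted reads) against the summed CPM of 8 fat body and yolk marker genes (x axis, log scale) in every library; circles are Kenyon cells, squares V2, triangles the 4-cell classes, crosses whole flies and stars brains, filled for control and open for trained neurons. The 4-cell libraries spread from 2.27% to 20.9% in share and from 1100 to 131000 CPM in marker sum, and the Kenyon cells reach at most 6.63%.

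Alpha/beta and gamma Kenyon cells had 0 members called by edgeR, with 11 at an unadjusted p under 0.05, and 0 called by DESeq2, with 9; 0.0218% of all genes were called. The members' median was 0.52, and RpL36, RpS12 and RpS21 had the smallest p, at log2 fold changes of 0.90 ± 0.32, 0.91 ± 0.36 and 0.91 ± 0.38 (alpha/beta over gamma, edgeR adjusted p = 1 for each). DAL against the other 4-cell classes also had 0 members called by edgeR or DESeq2, with 0 at an unadjusted p under 0.05 by each, where 3.74% of all genes were higher and 0.611% lower. In trained libraries the same comparison had 13 members lower and 0 higher, with 1.79% of all genes lower, and a median of -0.53 against 0.39 for all genes. Among control libraries, where no member was called, the smallest p for DAL were those of RpL7A (0.56 ± 0.29), RpL38 (-0.53 ± 0.34) and RpL7-like (0.80 ± 0.54).

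Among control libraries, V3 stood lowest of the 4-cell classes. Of 85 members tested, 21 were lower and 0 higher than in the other 3, against 0.513% and 3.92% of all genes, and the median was -0.99. RpLP1 (-1.50 ± 0.37), RpL3 (-1.48 ± 0.37), RpLP0 (-1.43 ± 0.35), RpS20 (-1.35 ± 0.40), RpL18 (-1.32 ± 0.38) and RpL7A (-1.30 ± 0.32) led, with RpLP1 at 1298, 443, 279, 1472 and 1196 CPM in the 5 V3 libraries and 2305, 2359, 2408, 2473 and 609 CPM in the 5 of DAL. The 5 V3 libraries all lay below 4 of the 5 DAL libraries, and the classes overlapped through DAL control 5. The count was 60 by DESeq2, where 3.63% of all genes were lower, 6 in trained libraries, where 0.536% were, and 9 relative to whole flies, where 0.228% were. It was also decided by single libraries: it was 2 without V3 control 3, 3 without V3 control 2, 5 without V3 control 5, 7 without V3 control 1 and 68 without V3 control 4, the V3 control library with the largest fat body sum (27220 CPM). It was 38 without DAL control 5, 39 without 3-86 control 2, 35 without 3-86 control 6 and 48 without R27G01 control 4. The fat body markers summed to 2754 to 27220 CPM in V3, 13440 to 53790 in DAL, 12770 to 69310 in 3-86 and 20750 to 68660 in R27G01, all control libraries. Of 5 fat body markers tested in V3 against the other classes, edgeR called 0, with 3 at an unadjusted p under 0.05, and DESeq2 called 3; their median log2 fold change was -1.80. Of 8 pan-neuronal markers 2 were higher in V3. The part of RNA from other cells in these falls was not tested.

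R27G01 had 3 members higher than the other 4-cell classes and 0 lower, against 1.56% and 1.16% of all genes, with a median of 0.69. They were RpS20 (1.25 ± 0.36), RpL29 (1.11 ± 0.31) and RpL37a (1.10 ± 0.30), with edgeR adjusted p of 0.0471, 0.0385 and 0.0362. RpL29 was at 889 to 1617 CPM in R27G01 and at 338 to 1941 CPM over the 20 control libraries of all 4-cell classes, where 3-86 reached the highest value, so the libraries overlapped. The count was 0 without R27G01 control 1 or 2, 14 without R27G01 control 4, 16 without V3 control 4, 29 without 3-86 control 5 and 1 without V3 control 5, and in trained libraries it was 30, where 3.3% of all genes were higher. Of 5 fat body markers edgeR and DESeq2 called 0, with 0 at an unadjusted p under 0.05 by edgeR and a median of 1.20, while 3 of 8 photoreceptor and 2 of 8 muscle markers were lower. Their part in the result was not tested. In 3-86, only RpS5b was called, higher, where 4.26% of all genes were higher and 1.51% lower; it is described with its paralog.

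Training was compared within each class. No member was called in any of the 7 classes by edgeR or by DESeq2, and edgeR called 0% of all genes tested in each. At an unadjusted p under 0.05, edgeR gave 5 members in DAL, 3 in R27G01, 2 each in alpha/beta and V2, 1 in V3 and 0 in gamma and 3-86. DESeq2 gave 4 in DAL, 8 in R27G01, 4 each in alpha/beta and V2, 3 in V3 and 0 in gamma and 3-86. The test of whether training differed between classes called 0 members against 1.24% of 9847 genes, with 3 at an unadjusted p under 0.05 (RpL24, RpL24-like and RpL18; smallest edgeR adjusted p = 0.204); DESeq2 called 0, with 1.

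The median log2 fold change of trained over control was highest in R27G01 (0.48) and V3 (0.41), then 0.30 in alpha/beta, 0.29 in 3-86, 0.12 in V2, 0.01 in gamma and -0.13 in DAL, where the medians of all genes lay between -0.10 and 0.03. Single libraries moved these medians: leaving out each in turn, they ran from 0.13 (without trained 4) to 0.72 (without control 2) in R27G01, from 0.01 (without trained 4) to 0.73 (without control 4) in V3 and from -0.004 (without trained 4) to 0.74 (without control 5) in 3-86. In DAL they ran from -0.76 (without trained 4) to 0.12 (without trained 3), in alpha/beta from 0.12 (without trained 4) to 0.45 (without trained 1), in V2 from 0.01 (without trained 5) to 0.28 (without trained 4) and in gamma from -0.03 (without control 6) to 0.08 (without control 1). Of the members tested, 80 of 83 were above 0 in alpha/beta, 76 of 83 in V3, 74 of 84 in 3-86, 77 of 83 in R27G01, 57 of 83 in V2, 47 of 83 in gamma and 29 of 83 in DAL. Members share each library's composition, so these counts hold few independent observations and carry no test. The summed share was 2.51% ± 0.37 (n = 6) in trained gamma, 3.70% ± 2.11 (n = 6) in trained alpha/beta, 3.40% ± 1.05 (n = 5) in V2, 7.49% ± 3.55 (n = 5) in V3, 8.26% ± 4.99 (n = 5) in DAL, 12.6% ± 3.65 (n = 4) in 3-86 and 15.3% ± 3.73 (n = 4) in R27G01. Every trained group overlapped its control group. Markers of other cell types also had medians away from 0 in these comparisons, with 0 called by edgeR or DESeq2 in each list named here. In R27G01 their median log2 fold changes were 1.06 for 5 fat body markers, 1.43 for 5 photoreceptor markers and 2.17 for 4 muscle markers, with 1, 2 and 0 at an unadjusted p under 0.05. In 3-86 they were 0.04 for 4 fat body, 1.54 for 8 photoreceptor and 1.90 for 8 muscle markers, with 0, 5 and 3 at that threshold. In V3 they were 0.46, 1.84 and -0.62 for 4, 8 and 6 markers, with 0 in each, and in alpha/beta 4 fat body markers had 3.32, with all 4 at it. The part of such RNA in the members' shifts was not tested.

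The 3 members with the smallest p in each class show the size of what was not called. In DAL these were RpL24 (-1.21 ± 0.48), RpL18 (-1.12 ± 0.46) and RpLP1 (-1.24 ± 0.51), each at an edgeR adjusted p of 1. In R27G01 they were RpL23 (1.11 ± 0.45), RpS30 (0.94 ± 0.45) and RpLP1 (0.98 ± 0.47). V3 had RpL7A (1.04 ± 0.45), RpL27A (0.99 ± 0.47) and RpLP1 (1.28 ± 0.64), and 3-86 had RpL21 (0.65 ± 0.47), RpL24-like (0.81 ± 0.60) and RpL34b (0.76 ± 0.58). RpLP1 was thus below control in DAL and above it in V3 and R27G01, none of them past the threshold. In alpha/beta RpL4 (0.83 ± 0.38), RpL27A (0.60 ± 0.28) and RpS5a (0.58 ± 0.28) came first, in V2 RpS27A (0.48 ± 0.22), a fusion of ubiquitin with a small-subunit protein, RpLP2 (0.86 ± 0.40) and RpS3A (0.39 ± 0.19), and in gamma RpLP2 (-0.37 ± 0.22), RpL10Ab (0.27 ± 0.17) and RpS5a (0.23 ± 0.17).

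The alpha/beta comparison held the widest trained group of the Kenyon cells. Its 6 trained libraries had shares of 1.23%, 4.30%, 2.34%, 6.63%, 5.47% and 2.25%, and the lowest was the shallowest neuron library, at 1.69 M reads. Without it 19 members had an unadjusted p under 0.05 in place of 2, and 0 were called. The trained libraries at 6.63% and 5.47% also had the group's largest fat body sums, 4254 and 17660 CPM, where the 6 control libraries had 39.99 to 909 CPM; the part of such RNA in the shift was not tested. The median coefficient of variation of members over libraries was 61.0% in trained alpha/beta, against 29.1% for other genes of like level, and 27.2% against 21.4% in control gamma. As shares of the members' own sum, their median coefficient of variation was 22.2% in trained alpha/beta and 14.1% in control gamma.

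**Figure D3:**
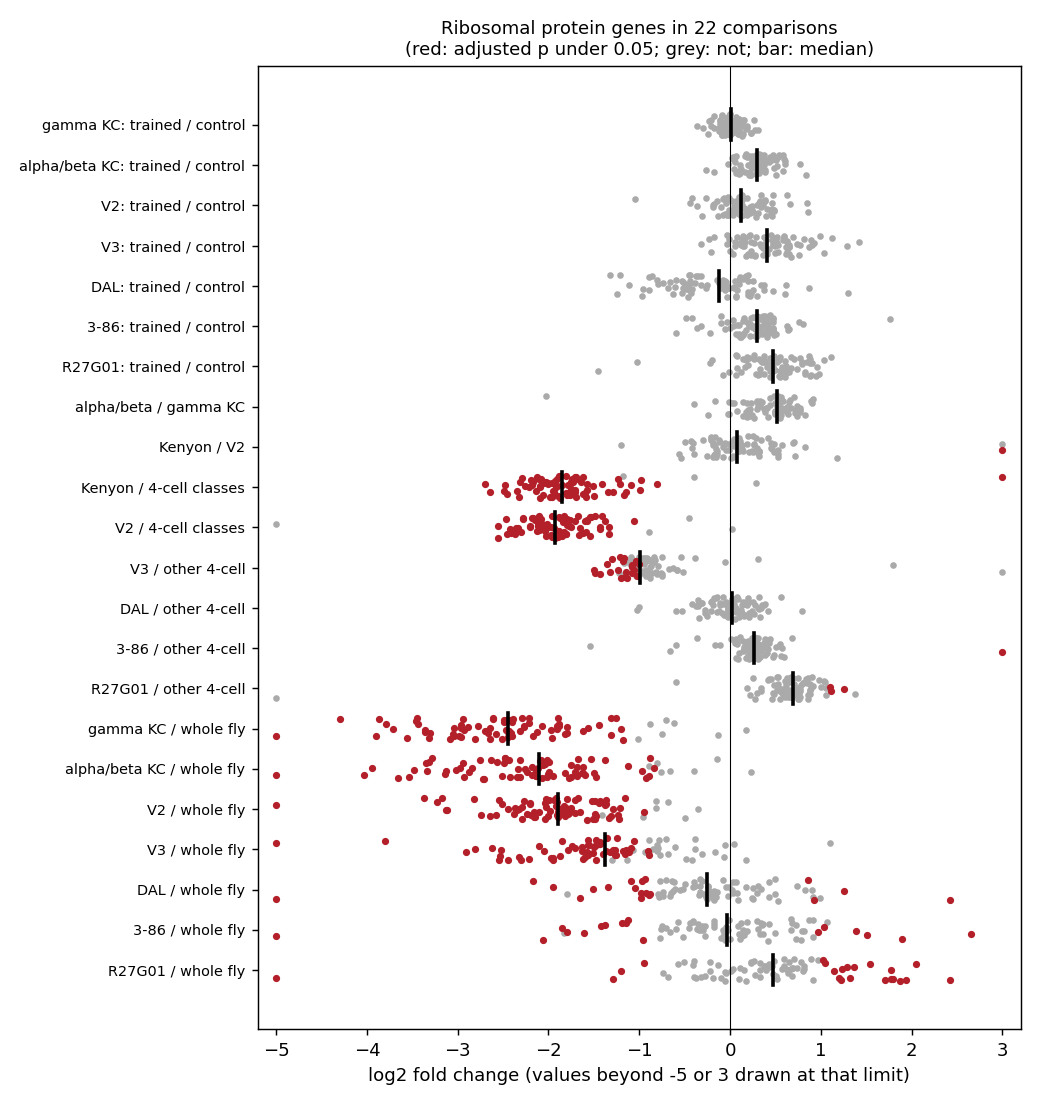
Log2 fold change of each tested ribosomal protein gene (points, x axis) in 22 comparisons (y axis), red where the edgeR adjusted p is under 0.05 and grey otherwise, with the median as a bar; 14 points beyond the axis are drawn at its limit. The training comparisons hold grey points with medians from -0.13 to 0.48, and the Kenyon and V2 comparisons with 4-cell classes hold red points around -1.86 and -1.93.

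Whole flies gave the level in the body as a whole. Averaged over the 7 classes, control neurons had 75 of 84 tested members lower and 1 higher than whole flies of the same drivers, against 34.3% lower and 30.2% higher among 10549 genes. The members' median was -1.08, with 0.01 for all genes. When libraries were scaled with DESeq2's size factors in place of TMM, the median of all genes moved to -0.90 and that of the members to -1.99, with 83 lower and 0 higher, where 48.5% of all genes were lower and 20.5% higher. Members lay about the same distance below all genes under both scalings. Under TMM, leaving out gamma control 4 moved the medians of members and of all genes to -1.51 and -0.39, with 79 members lower and 1 higher.

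RpLP0 and RpS3A had the largest falls among members at 10 CPM or more in neurons. RpS3A was at 652 CPM at the lowest, 1223 at the median and 6556 at the highest in 37 control neuron libraries, against 6385, 11190 and 15160 CPM in 24 driver whole-fly libraries. The ranges touched through 1 R27G01 library, and the log2 fold change was -2.66 ± 0.12 (edgeR adjusted p = 2.83e-27). RpLP0 was at 102, 459 and 2118 CPM in neurons and 2429, 4318 and 6711 CPM in whole flies, with no overlap, and had -2.97 ± 0.15. Its stalk partners RpLP1 (-0.71 ± 0.15) and RpLP2 (-1.07 ± 0.20) differed less, so the 3 stalk genes did not move by one amount. RpS7 (-2.30 ± 0.14), RpL13A (-2.28 ± 0.14), RpS2 (-2.20 ± 0.13), which lines the path of the message, RpS6 (-2.09 ± 0.11) and RpL3 (-2.04 ± 0.15) followed. RpL32 had -0.70 ± 0.15 and RpL39 -0.49 ± 0.15.

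At the other end, 8 members, listed after their values were seen, were not called: RpL18, RpL22, RpL24, RpL24-like, RpL29, RpS10b, RpS21 and RpS27, with log2 fold changes between -0.09 and 0.33. With DESeq2's size factors all 8 were called lower, among them RpL22 (-0.78 ± 0.18), RpL29 (-0.69 ± 0.14) and RpS10b (-0.58 ± 0.21). Without gamma control 4, 80 of the 84 members tested were called under TMM, so this list also depends on a single library. The rank correlation of the neuron to whole-fly ratio with coding length was -0.51 over 84 members, given as a description, since the members share libraries and amplification. The cDNA of all samples was amplified before counting, and how length enters the measurement was not tested. Among the comparisons between neurons, the same correlation for Kenyon cells over 4-cell classes was 0.24 over 83 members.

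**Figure D4:**
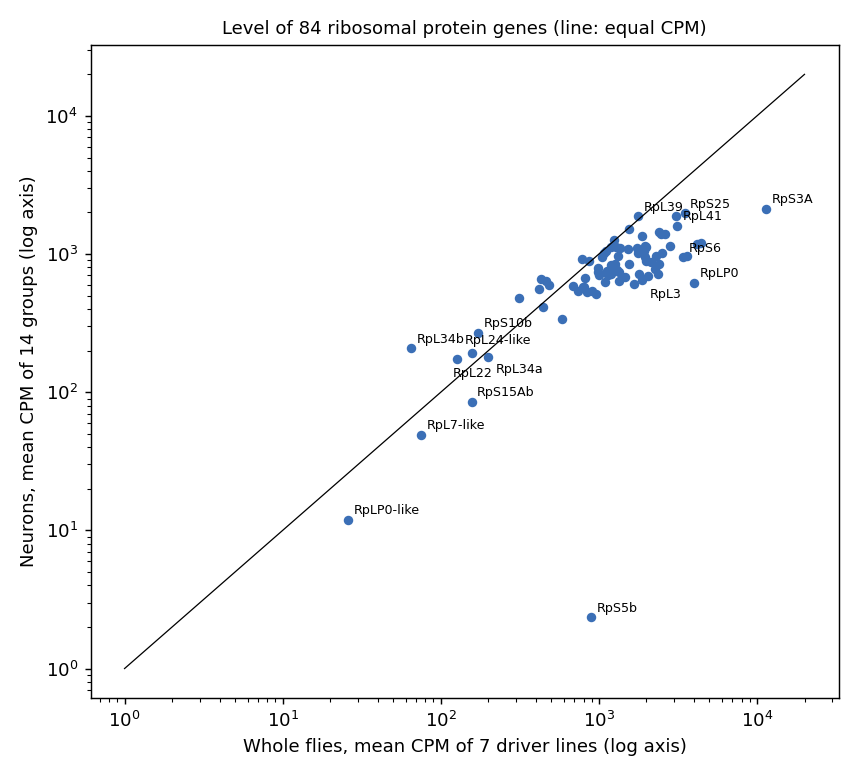
Mean CPM of each of 84 ribosomal protein genes over the 14 neuron groups (y axis, log scale) and over whole flies of the 7 driver lines (x axis, log scale), with the line of equal CPM. Most points lie below the line. RpS5b is the farthest below it, followed by RpLP0 and RpS3A, and RpL34b lies above the line.

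By class, the members' median log2 fold change was 0.48 in R27G01, -0.03 in 3-86, -0.25 in DAL and -1.38 in V3, and it lay lower still for V2 (-1.90), alpha/beta (-2.10) and gamma (-2.45). Against their own driver's whole flies, gamma cells had 76 members lower and 0 higher (all genes 22.6% and 19%), alpha/beta 75 and 0 (23.9% and 16.7%), V2 77 and 0 (20% and 17.2%) and V3 58 and 0 (16.4% and 15.5%). DAL had 15 lower and 4 higher (19.5% and 18.5%), the higher ones being RpL34b, RpL22, RpL29 and RpL24-like. Both shares of the members were below those of all genes, and the split rested on single libraries: it was 9 lower and 9 higher without DAL control 5, 8 and 4 without whole-fly library 1, and 17 and 1 or 15 and 1 without whole-fly library 2 or 4. In 3-86 there were 11 lower and 6 higher (18.3% and 21.6%), with RpL34b (2.66 ± 0.55), RpS10b (1.90 ± 0.56), RpS21 (1.51 ± 0.38), RpL29 (1.39 ± 0.36), RpL24 (1.03 ± 0.35) and RpS27 (0.97 ± 0.36) higher. Without 3-86 control 5 these counts were 26 and 4, and without control 3 they were 11 and 11. R27G01 had 4 lower (RpS5b, RpLP0, RpS3A and RpS6) and 18 higher (18.9% and 17.1% of all genes), led by RpL34b (2.43 ± 0.64), RpLP1 (2.05 ± 0.48) and RpS21 (1.94 ± 0.46). The count of higher members was 8 without R27G01 control 2 or whole-fly library 4, 9 without whole-fly library 2 and 12 without R27G01 control 1 or whole-fly library 3. RpLP0, RpS3A, RpS6 and RpS5b were lower in each of the 7 comparisons, with RpS3A from -3.79 ± 0.31 in gamma to -1.20 ± 0.35 in R27G01 and RpLP0 from -4.29 ± 0.37 to -1.29 ± 0.41. The R27G01 split turned with the scaling: with DESeq2's size factors 23 of 84 were lower and 0 higher, where 25.5% of all genes were lower and 9.45% higher, and the medians of members and all genes moved from 0.48 and 0.03 to -0.61 and -0.75. With those factors DAL had 57 lower and 1 higher, against 26.6% and 11.7% of all genes, and 3-86 had 48 and 1, against 26.5% and 14%.

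Paralog pairs differed in which copy was counted. RpS5a and RpS5b encode the same small-subunit protein, and RpS5b is known as the copy of the female germ line. RpS5b was at 264.5 CPM at the lowest, 892 at the median and 1287 at the highest in driver whole flies, and at 0, 0 and 58.1 CPM in control neurons. RpS5b made up 37.5% ± 8.73 of the pair's counts in driver whole flies (n = 24), 0.46% ± 1.31 in control neurons (n = 37) and 0.83% in the brains. In V2 and R27G01 control libraries it had 0 counts, so it was at least 18200-fold and at least 11400-fold lower than in the whole flies of those drivers, set against 3 counts over the group. It was higher in 3-86 than in the other 4-cell classes (12.2 ± 22.95 CPM, n = 6), a call that rests on control libraries 4 (58.1 CPM) and 3 (12.0 CPM), the latter one of the libraries with unmatched runs; without library 4 no member was called. The remaining control 3-86 libraries had 0, 2.56, 0 and 0.602 CPM.

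Averaged over the 7 classes, RpL34b was higher in neurons than in whole flies, where most members were lower. It was at 11.8 CPM at the lowest, 91.7 at the median and 559 at the highest in control neurons and at 29.7, 57.7 and 189 CPM in driver whole flies, so the groups overlapped. Its log2 fold change was 1.17 ± 0.21 (edgeR adjusted p = 2e-06), and it was the single member called higher, whereas RpL34a, the other copy, had -0.52 ± 0.14. With DESeq2's size factors RpL34b had 0.25 ± 0.20 (edgeR adjusted p = 0.28). As a share of the pair's counts, which does not depend on scaling, RpL34b was 48.1% ± 13.97 in control neurons (n = 37), 23.2% ± 6.59 in driver whole flies (n = 24), 42.3% ± 0.098 in UAS-GFP whole flies (n = 3) and 80.0% in the brains. UAS-GFP whole flies thus lay within the range of control neurons in this measure and, apart from the highest of them (45.1%), above the driver lines.

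RpL24-like, RpL7-like and RpLP0-like are named for ribosomal proteins, but their yeast relatives (Rlp24, Rlp7 and Mrt4) are assembly factors of the large subunit. RpL24-like held 36.0% ± 5.25 of the counts of RpL24 and itself in control Kenyon cells (n = 12), 37.6% ± 9.57 in V2 (n = 5), 26.95% ± 9.48 in the 4-cell classes (n = 20) and 27.3% ± 3.95 in driver whole flies (n = 24). Within R27G01, RpL24-like held 24.1% to 30.5% of the pair in the 4 control libraries and 5.83% to 13.1% in the 4 trained ones, with no overlap. This split was picked out after the values were seen among the pairs plotted in 7 classes and was not tested as a share; RpL24-like itself had -1.02 ± 0.60 after training there (edgeR adjusted p = 1). RpL7-like held 14.9% ± 4.41 of its pair in control Kenyon cells, 6.26% ± 1.87 in V2, 4.12% ± 2.93 in the 4-cell classes, 3.06% ± 0.67 in driver whole flies and 72.4% ± 11.3 in the brains (n = 2). RpL7 itself fell by 1.95 ± 0.23 on the log2 scale in Kenyon cells against the 4-cell classes, while RpL7-like had 0.28 ± 0.40. RpLP0-like was at 4.41 ± 2.06 CPM (SD, n = 12) in Kenyon cells and 11.5 ± 21.9 CPM (n = 20) in the 4-cell classes.

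**Figure D5:**
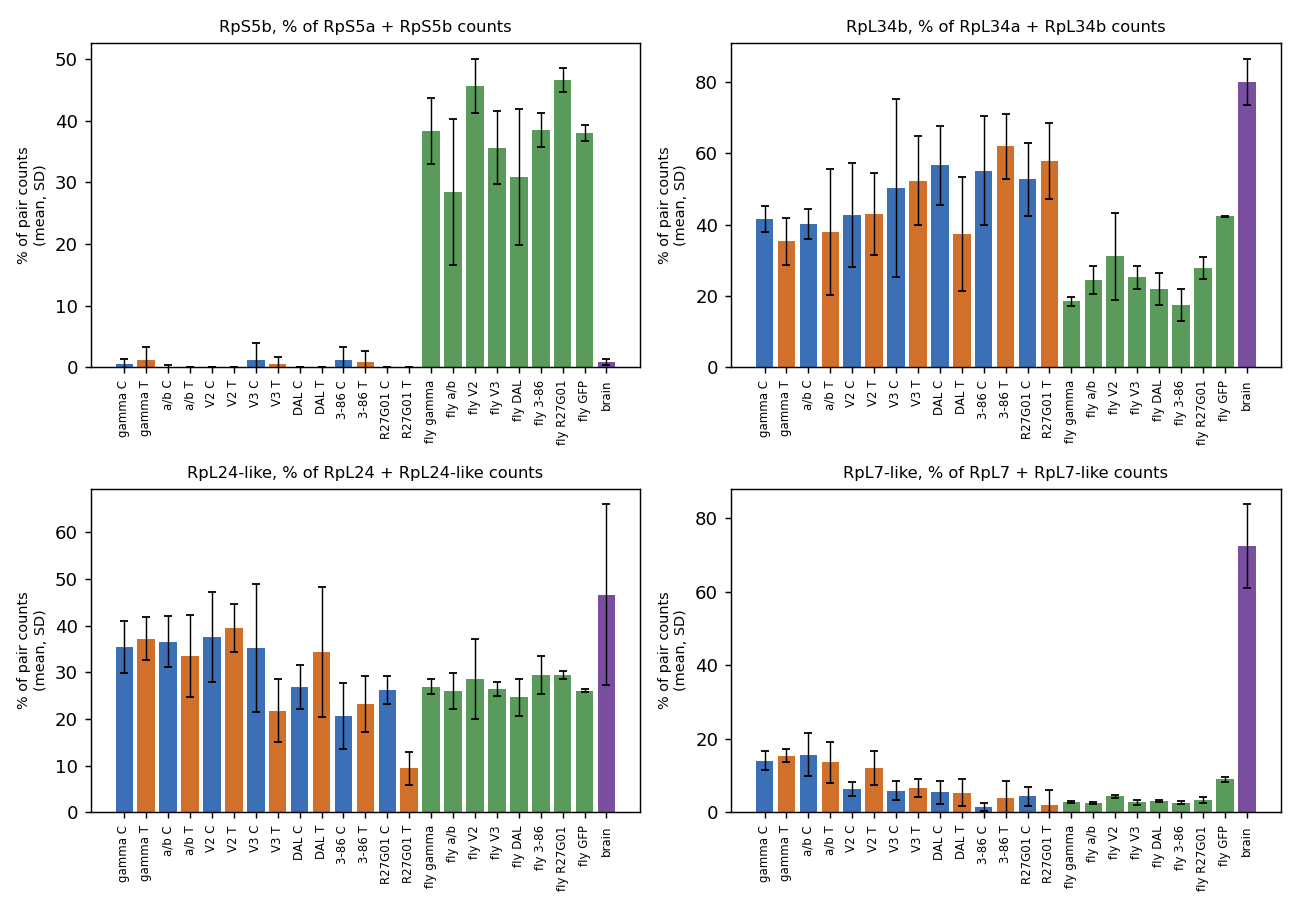
Share of RpS5b, RpL34b, RpL24-like and RpL7-like in the summed counts of their pair (y axis, %, mean as bar and SD as whisker) by group on the x axis, where C is control and T trained neurons (blue and orange), fly is whole flies of that line (green) and brain is purple; shares are not corrected for length. RpS5b stands at 37.5% in driver whole flies and near 0 in neurons, and RpL7-like reaches 72.4% in the brains.

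The other pairs were steady or one-sided. RpS14b held 29.1% ± 2.27 of its pair in control neurons and 31.9% ± 1.70 in driver whole flies, and RpS15Ab 12.4% ± 3.24 and 12.9% ± 1.79 of its own. RpS14a and RpS14b are near-identical, and how the counting divided reads between such copies is not given in the sources used here, so their split is uncertain. RpL10Ab, RpL22, RpL37a, RpS10b, RpS19a and RpS28b carried nearly all counts of their families. Over all libraries RpL10Aa had 2 counts, RpL22-like, known from the male germ line, 7, RpS28a 19, RpS28-like 43, of which 42 came from 3-86 control 5, RpL37b 90, RpS19b 116, all in whole flies, and RpS10a 260.

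Genes that work with the ribosome moved in part with the members. Of those under other symbols, sta (-2.11 ± 0.29), which encodes a small-subunit protein, and Rack1 (-1.90 ± 0.28), a scaffold on the small subunit, were both lower in Kenyon cells than in the 4-cell classes. Of 9 elongation factor and related genes 7 were lower and 1 higher, where 16.5% of all genes were lower and 19.4% higher. Ef1alpha48D, the general elongation factor that brings transfer RNA to the ribosome, was at 233 ± 94.7 CPM in Kenyon control libraries (n = 12), 671 ± 266 in V2 (n = 5), 4632 ± 2879 in the 4-cell classes (n = 20) and 61170 ± 11640 in driver whole flies (n = 24). Ef1alpha100E, its paralog, was at 1033 ± 379, 892 ± 121, 689 ± 254 and 60.4 ± 38.1 CPM in the same order. The log2 fold changes of Kenyon cells over the 4-cell classes were -4.30 ± 0.34 for Ef1alpha48D and 0.71 ± 0.16 for Ef1alpha100E, and those of neurons over whole flies -5.37 ± 0.19 and 3.62 ± 0.19. Ef1beta (-3.31 ± 0.35), Ef1gamma (-3.06 ± 0.33) and eIF-5A (-1.99 ± 0.25) fell in Kenyon cells too.

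Of 13 ribosome biogenesis genes tested, edgeR called 0 between Kenyon cells and the 4-cell classes, with 0 at an unadjusted p under 0.05, and DESeq2 called 1. Their median log2 fold change was -0.36, with nop5 at -1.47 ± 0.94 and Nop60B at -1.21 ± 0.76, and their difference from the members was not tested. Between V2 and the 4-cell classes edgeR called 0, with 1 at an unadjusted p under 0.05, and DESeq2 called 0. In neurons over whole flies 10 were lower and 0 higher, where 34.3% of all genes were lower and 30.2% higher. Among the 10 were Nop60B (-5.63 ± 0.44), nop5 (-4.79 ± 0.51) and Nop56 (-4.13 ± 0.40). Of 15 genes of RNA polymerase I and growth control, 2 were lower and 0 higher in Kenyon cells than in the 4-cell classes. Among all genes tested 16.5% were lower and 19.4% higher, and the median of the list was 0.13. Thor, the translational repressor known as 4E-BP, was at 3.00 ± 4.54 CPM in Kenyon cells (n = 12) and 191 ± 248 in the 4-cell classes (n = 20). Its log2 fold change was -6.15 ± 0.81, and Rheb, an activator of Tor, had -1.26 ± 0.27. The gene larp, an RNA-binding factor of ribosomal protein messages, had 0.50 ± 0.22 there (edgeR adjusted p = 0.0736) and 2.86 ± 0.16 in neurons over whole flies. In neurons over whole flies 4 of the 15 were higher and 3 lower, against 30.2% and 34.3% of all genes. Of 71 mitochondrial ribosomal protein genes tested, 10 were lower and 0 higher in Kenyon cells than in the 4-cell classes, against 16.5% and 19.4% of all genes. In neurons over whole flies 31 were higher and 6 lower, against 30.2% and 34.3% of all genes, with a median of 0.54.

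In the brains the members were low and differently composed. RpL3 was at 645 and 512 CPM, against 195 ± 86.4 CPM (SD, n = 12) in control Kenyon cells, and RpS2 at 866 and 661 CPM against 399 ± 183. RpL7-like, at 184 and 189 CPM, and RpL34b, at 210 and 160 CPM, were also above their Kenyon cell means of 51.4 and 61.5. RpL41, at 26.2 and 44.0 CPM, and RpS6, at 65.1 and 79.5 CPM, were below every control Kenyon library. The rank correlation of the brain to Kenyon ratio with coding length was 0.39 over 82 members. With 2 brain libraries of UAS-GFP flies, whose names differ only by the letter A or B, and no test planned, these values are a description.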

How the data were processed

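Read counts per gene were deposited by the authors for each of 185 samples, with no normalization. Per the submitters' processing notes, the tools were cutadapt for trimming, HTSeq, DESeq2 1.4 and the aligners Bowtie, Bowtie2 and TopHat2, with the build BDGP5. Per the labels' protocols, cDNA was amplified with a SMARTer kit, which does not count molecules. The 84 libraries with 2 runs were summed. Compiled tables, with 298 columns of per-sample values, were not used here. CPM is counts per 1e6 counted reads.

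Tests ran in edgeR 4.0.16 (R 4.3.3) on genes passing filterByExpr, scaled by TMM, with robust quasi-likelihood fits, 2-sided tests and Benjamini-Hochberg adjustment over all genes tested at 0.05; log2 fold changes are given with SE from the F statistic. Training was fitted within each class, classes on the 37 control neuron libraries, and neurons against whole flies on control and driver-line libraries. Replicates are libraries; the series text speaks of paired control and trained animals, and library titles end in codes, some of which control and trained libraries share. What the codes mean is not given in the sources used here and no label says which libraries form pairs, so training was fitted without them. Since the labels name no separate animals, the tests see only differences among libraries, which may be technical. Alternatives were DESeq2 1.42.0, its size factors, TMM without the members, no filter, and libraries left out. The scripts were tested on simulated counts.

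The members and lists were chosen with earlier results of these data known. Named were members with a paralog, up to 6 largest changes past the threshold at 10 CPM or more in each direction (or the 3 smallest p), members called against the majority, RpL32, RpLP0, RpLP1, RpLP2, RpS6 and RpL3, the 5 highest and lowest per kilobase, members with a library apart, and up to 5 changes in each other list. Coding lengths are from the Release 6 reference annotation (all 92 matched, 90 by symbol), and no coordinates are given since its build is not that of the counts. Paralog shares use libraries with at least 20 counts in the family.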

Additional observations from a re-analysis of the deposited data

Results flagged for a closer look

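In groups of 4 to 10 libraries, 11 of 153 group values tested (7.19%) had a library far from the others by Dixon's test. For a single normally distributed set chance gives about 1 in 20. The sets tested share libraries and hold CPM or percent without logs, so these rates cannot be compared directly. Control library 5 of 3-86 stood highest in the summed share (20.9%, the others 5.98% to 10.1%), in RpL41 (5039 CPM, the others 1176 to 2154), in RpL32 (2125 CPM, the others 440 to 1045) and in RpS5a (2146 CPM, the others 506 to 1059). This library also had the largest fat body marker sum of its group, 69310 CPM; the part of such RNA was not tested. Trained library 4 of 3-86 stood highest in RpL34b (942 CPM, the others 309 to 369) and in RpS3A (5699 CPM, the others 2741 to 3124). Control library 5 of DAL stood lowest in RpLP1 (609 CPM, the others 2305 to 2473), and control library 2 of DAL highest in RpS5a (1996 CPM, the others 671 to 1030). Control library 4 of V2 stood highest in RpL32 (333.8 CPM, the others 208 to 241). Among whole flies, gamma library 2 was lowest in RpS3A (12590 CPM, the others 14760 to 15160), and 3-86 library 2 was highest in RpL32 (753 CPM, the others 538 to 568).

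The difference between neurons and their own driver's whole flies was itself compared between classes, by edgeR with adjustment over all genes. Of 84 members tested, it differed for 81 between Kenyon cells and the 4-cell classes (18.7% of all genes) and for 51 between V2 and the 4-cell classes (2.95%). It differed for 9 between V3 and the other 4-cell classes (0.322%) and for 1 between R27G01 and the others (1.94%), a share no higher than that of all genes.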

How the results depend on the processing

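Under every alternative run, the training comparisons and alpha/beta against gamma kept 0 calls, and the counts for Kenyon cells against 4-cell classes (66 to 82), all neurons against whole flies, and gamma, alpha/beta, V2 and V3 against theirs stayed within 1.5 times. Between Kenyon cells and V2 the count of members was 1, and 0 by DESeq2, with no filter, in trained libraries and relative to whole flies. Between V2 and the 4-cell classes it was 81, and 51 relative to whole flies. DAL against the other 4-cell classes had 0, and 13 in trained libraries. V3 had 21, and 60 by DESeq2, 34 with DESeq2's size factors, 33 with TMM without the members, 44 with no filter, 6 in trained libraries and 9 relative to whole flies. For 3-86 the count was 1 higher, and by DESeq2 1 lower, 2 with no filter and 0 relative to whole flies. R27G01 had 3, and 5 by DESeq2, 5 with no filter, 30 in trained libraries and 1 relative to whole flies. Against whole flies, DESeq2, its size factors and no filter gave 60, 58 and 38 for DAL in place of 19, 47, 49 and 34 for 3-86 in place of 17, and 24, 23 and 19 for R27G01 in place of 22, where the majority turned from higher to lower. RpL29 in DAL against whole flies turned to -0.01 by DESeq2 and to 0.00 with size factors, and RpL24-like to -0.09 with both. The cause was not tested.

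Leaving out single libraries gave 0 to 2 for 3-86, 0 to 1 for Kenyon cells against V2, 79 to 81 for V2, 2 to 68 for V3 and 0 to 29 for R27G01. Against whole flies it gave 74 to 80 for all neurons, 76 to 78 for gamma, 69 to 76 for alpha/beta, 68 to 77 for V2, 47 to 71 for V3, 12 to 22 for DAL, 16 to 30 for 3-86 (30 without control library 5) and 12 to 25 for R27G01. The R27G01 count was 13 without R27G01 control 2 or whole-fly library 2, 14 without whole-fly library 3 and 12 without whole-fly library 4. The summed share under TMM scaling was 2.52% in control V2, 20.2% in trained R27G01, 0.718% in the brains, and in whole flies 15.0% (DAL), 5.54% (UAS-GFP), 12.9% (R27G01), 11.25% (V2), 17.1% (alpha/beta), 14.6% (3-86) and 19.2% (V3). The members' median coefficient of variation over libraries, taken as the median of the 14 neuron groups, was 34.4%, and 18.14% for shares of their own sum. Of the values of single named genes under alternatives, 2226 kept their direction and side of the threshold, 154 lost their call and 4 reversed.

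Control and trained libraries with one title code deviated from their group means with median correlations of -0.04 to 0.03 by class. Several libraries can share a code (in V3, 10 libraries held 2 codes), so these values can neither show nor exclude pairs. The first 2 digits as a factor called 0 members in DAL (median -0.44), alpha/beta, V3 and 3-86, and could not be fitted for the others, which share 1 such code. The whole code as a replicate block, over libraries whose code both training groups share, called 0 in DAL, gamma, alpha/beta, V3 and 3-86, with medians of -0.44, 0.01, 0.65, 0.44 and 0.28 and 2, 0, 48, 5 and 0 members at an unadjusted p under 0.05 (alpha/beta with 3 trained libraries); V2 and R27G01 share 1 code. With the sheet's grouping letter as a factor, DAL, gamma, alpha/beta, V2 and V3 had medians of 0.11, 0.02, 0.46, 0.09 and 0.40 and 1, 0, 20, 2 and 15 members at an unadjusted p under 0.05. The block, a factor for the grouping letter in the deposited sample sheet, the alpha/beta comparison without its shallowest library and the bound on fat body markers were chosen after seeing the data. Few cells stand behind each 4-cell library, and the part of depth was not tested.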
